A study of Mus musculus with 2 samples.

Results

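The coagulation and complement genes examined here were 49 genes chosen by a list of symbols, of 55536 annotated genes in the deposited gene tables, and all 49 were found. They encode the clotting factors and fibrinogen, the proteins that start, restrain and dissolve a clot, and the complement components with their regulators and receptors. The libraries held total RNA of adrenal glands from 4-day-old male mice of the strain B6CASTF1/J, a hybrid of a laboratory strain and a wild-derived one, with no treatment or engineered allele named in the labels. The only group held 2 biological replicates, so the only difference that could be measured was that between their libraries. The biosample labels number different males, although another label of replicate 2 repeats the animal of replicate 1. Each library was made from 300 ng of RNA with spike-in transcripts, and annotated genes received 32231301 estimated counts in replicate 1 against 30292851 in replicate 2. A gene at 0 counts could thus still have reached 0.0931 or 0.0990 CPM (the library-scaled count that 3 counts give), and this floor, like every interval below, covers counting error only.

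In a clotting reaction, tissue factor on cells outside the vessel, or the contact system in plasma, starts a chain of serine proteases that ends with thrombin cutting fibrinogen into fibrin. Endothelial cells hold this chain in check, and plasmin dissolves the clot. Complement is a related protease system that tags and lyses targets through a classical, a lectin and an alternative route, which meet at C3. Most plasma proteins of both systems are secreted by hepatocytes, while endothelium, macrophages, fibroblasts and adipocytes are known for making particular ones. The adrenal gland itself has a cortex that makes steroids and a medulla that makes catecholamines, and its dense sinusoids bring both cell layers close to endothelium.

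The members were therefore put into 3 classes by the textbook source of the protein. This was done with earlier results of these data known, so counts and medians by class below only describe these libraries and test nothing about the classes. The 22 liver-made members are F2, F7, F9, F10, F11, F12, F13b, Fga, Fgb, Fgg, Plg, Klkb1, Kng1, Proc, C8a, C8b, C8g, C9, Cfi, Masp2, Mbl1 and Mbl2. The 10 mixed members, made in liver and in many other tissues, are F5, Pros1, C1ra, C1s1, C2, C3, C4b, C6, Cfb and Masp1. The 17 local members are F3, F8, F13a1, Plat, Plau, Plaur, Procr, Thbd, Tfpi, Vwf, C7, Cfd, Cfp, C3ar1, C5ar1, Cd55 and Cd59a.

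The 3 fibrinogen chain genes lie side by side on chromosome 3 and were among the members that differed most between the libraries, so the bases just before their starts are shown. The sequences are from RefSeq (GRCm38.p6), 150 bases each, in lower case with no part marked. They run up to the transcription start given there, except that the Fga window stops 77 bases earlier, where the gene begins in the GENCODE annotation.
Fga, chr3:83025926-83026075, plus strand: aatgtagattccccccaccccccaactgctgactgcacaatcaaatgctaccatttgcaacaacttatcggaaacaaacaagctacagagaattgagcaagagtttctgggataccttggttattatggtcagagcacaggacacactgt
Fgb, chr3:83049864-83050013, minus strand: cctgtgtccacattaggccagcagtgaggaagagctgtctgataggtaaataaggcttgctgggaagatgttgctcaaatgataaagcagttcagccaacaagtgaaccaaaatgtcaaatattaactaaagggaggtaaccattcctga
Fgg, chr3:83007574-83007723, plus strand: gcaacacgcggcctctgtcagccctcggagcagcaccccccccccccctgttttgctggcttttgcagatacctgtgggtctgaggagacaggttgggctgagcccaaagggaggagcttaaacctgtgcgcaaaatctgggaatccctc

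Promoter windows of 300 bases, from 250 before to 50 after the start, were at hand for 37 of the 49 members. On either strand, no member window held CAAAGTCCA (an HNF4 motif), TTGCGCAA (a C/EBP motif) or CCGGAAGT (an ETS motif), which occurred in 0.475%, 0.183% and 3.89% of all 32851 promoters. This says only that these letters are not in these windows.

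Levels are given as deposited TPM (transcript abundance per transcript length, scaled to the same total in each library), first in replicate 1 and then in replicate 2. Of the 49 members, 47 had a mean of 1 TPM or more, the limit used for detection, and the median level over members was 2.85 TPM in the first library and 8.12 TPM in the other. The members summed to 316.5 TPM in replicate 1 and to 1144 TPM in replicate 2, and held 0.0786% and 0.293% of the gene counts. The order of levels differed with the library. In replicate 1 the highest members were C4b, Tfpi, Masp1, C3 and Pros1, and in replicate 2 they were C3, Kng1, Fga, Fgg and Plg.

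The libraries were compared gene by gene with an exact two-sided binomial test of the counts, adjusted by Benjamini-Hochberg over the 18160 genes with enough counts in both libraries, and a gene was called when the adjusted p was under 0.05 and the difference over 2-fold. This compares 2 libraries and no conditions. Of 44 members tested, 20 were higher in replicate 2, and over all genes tested 3.38% were. None of the 44 was higher in replicate 1 by that rule, against 0.606% of all genes tested. With no limit on the fold, 10 members were lower in replicate 2 at an unadjusted p under 0.05 of the binomial test. The share of all genes at that looser rule was not computed, so the 10 are not read as a trait of the members. Even the adjusted threshold was passed by 6084 of the 18160 genes, in either direction, with no limit on the fold. With edgeR's exact test and a common dispersion, the counts of members were again 20 and 0, against 1.43% and 0.0771% of all genes tested. That dispersion was estimated from the same 2 libraries taken as 1 group, so it is no separate measure of variation between animals. Of the called members, 17 were liver-made, 3 were mixed and none was local.

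The log2 ratios below are replicate 2 over replicate 1 of library-scaled counts with a prior count of 0.5. Their median over the members at 1 TPM or more was 0.88, and that over all 15123 genes at this level was -0.02. The median was 4.94 for the liver-made members, 0.53 for the mixed and -0.21 for the local ones. Taken as the ratio of TPM, which also depends on transcript lengths, the median of all genes moved by 0.10 to 0.09, and those of the 3 classes were 4.96, 0.37 and -0.06. Relative to the median of all genes, the local members were then at -0.15 in place of -0.19, and the mixed at 0.28 in place of 0.54. In summed TPM the liver-made members went from 20.7 to 638, the mixed from 164 to 381 and the local from 131 to 125. Liver-made members thus made up 6.54% of the members' TPM in replicate 1 and 55.8% in replicate 2, while the local share was 41.5% and 10.9%.

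**Figure D1:**
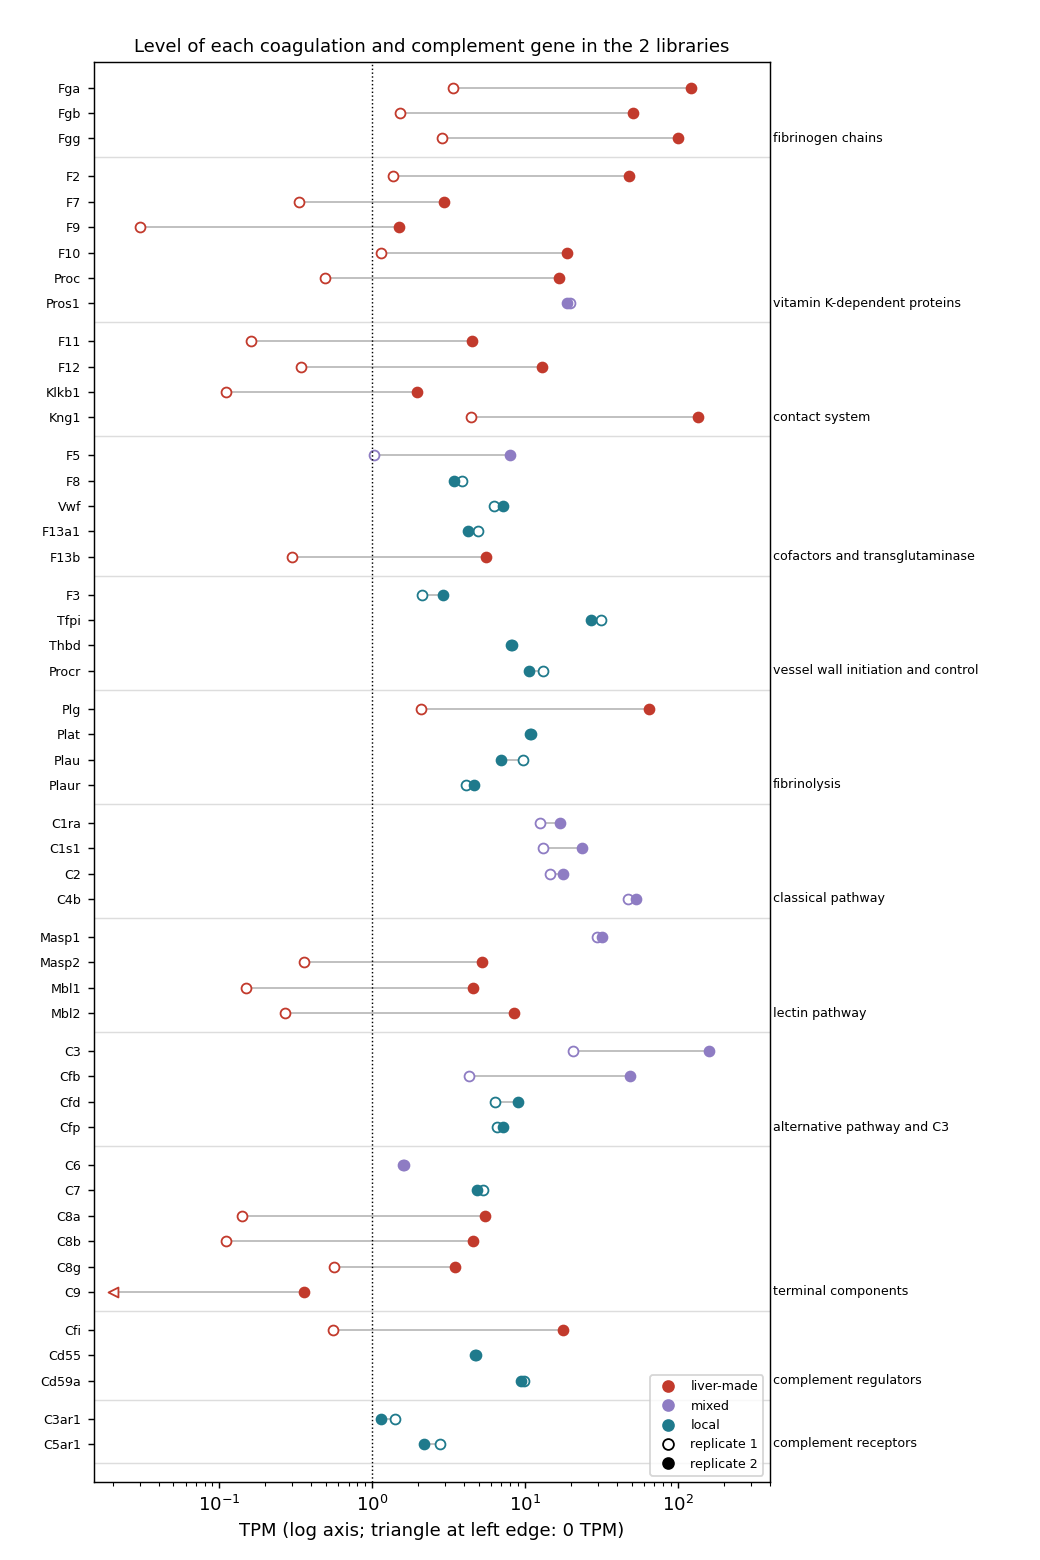
TPM of each of the 49 members (log axis) in replicate 1 (open points) and replicate 2 (filled points), ordered by role and coloured by class, with a dotted line at 1 TPM and a triangle for C9, which was at 0 in replicate 1. Long lines join the points of the liver-made members, from 0.03 to 1.50 TPM for F9 up to 4.43 to 136.9 TPM for Kng1, while the points of the local members lie close together.

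Hepatocyte markers moved the same way. All 12 of them were called higher in replicate 2, none was at 0 in replicate 1, and they summed to 237 TPM in replicate 1 against 6180 in replicate 2. Alb, which encodes serum albumin, was at 76.3 and 2319 TPM, Ahsg at 30.3 and 974.5 TPM and Trf at 57.6 and 884.5 TPM. The log2 ratios of the list ran from 2.17 for Hnf4a to 5.07 for Cyp2e1. Neutrophil markers were also higher in replicate 2, all 6 of them, with sums of 22.3 and 169 TPM. The part of either cell type in the members' difference was not tested, and in a whole gland fewer cells of a type and less RNA per cell cannot be told apart.

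The other marker lists differed less. Of the endothelial list 1 of 10 genes was called higher (Stab2, 1.47 and 4.45 TPM), and the sums were 320 and 362 TPM. Of the macrophage list 1 of 9 was called higher (Clec4f, 0.19 and 2.27 TPM), and the sums were 53.5 and 66.6 TPM. No gene of the adrenal cortex or chromaffin lists was called, with median log2 ratios of -0.24 each. The cortical enzyme Hsd3b1, at 3432 and 2477 TPM, and the chromaffin granule protein gene Chga, at 758 and 680.5 TPM, were abundant in both libraries. Adrenal RNA was thus present in both, which says nothing of RNA from other tissue. The adrenal cortex list summed to 6371 and 5001.5 TPM, and the hepatocyte list to 237 and 6180 TPM.

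The ratio of Alb gives a scale for the liver-made members. Alb was 28.5-fold higher in replicate 2, a log2 ratio of 4.84 with a 95% interval from 4.79 to 4.88. For 16 of the 22 liver-made members the interval of their own ratio held that value. Among them are F9, Mbl1, Mbl2, C8b and C9, whose few counts gave wide intervals, such as 3.77 to 7.65 for F9. The interval of Fga, from 4.87 to 5.25, lay above the Alb ratio but overlapped the interval of Alb. Those of F7, F10, F13b, Masp2 and C8g lay below both. No interval of a mixed or local member held the Alb ratio. The levels of the 22 liver-made members had a Spearman correlation of 0.877 between the libraries, given as a description across genes, which are not independent replicates and share the library.

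**Figure D2:**
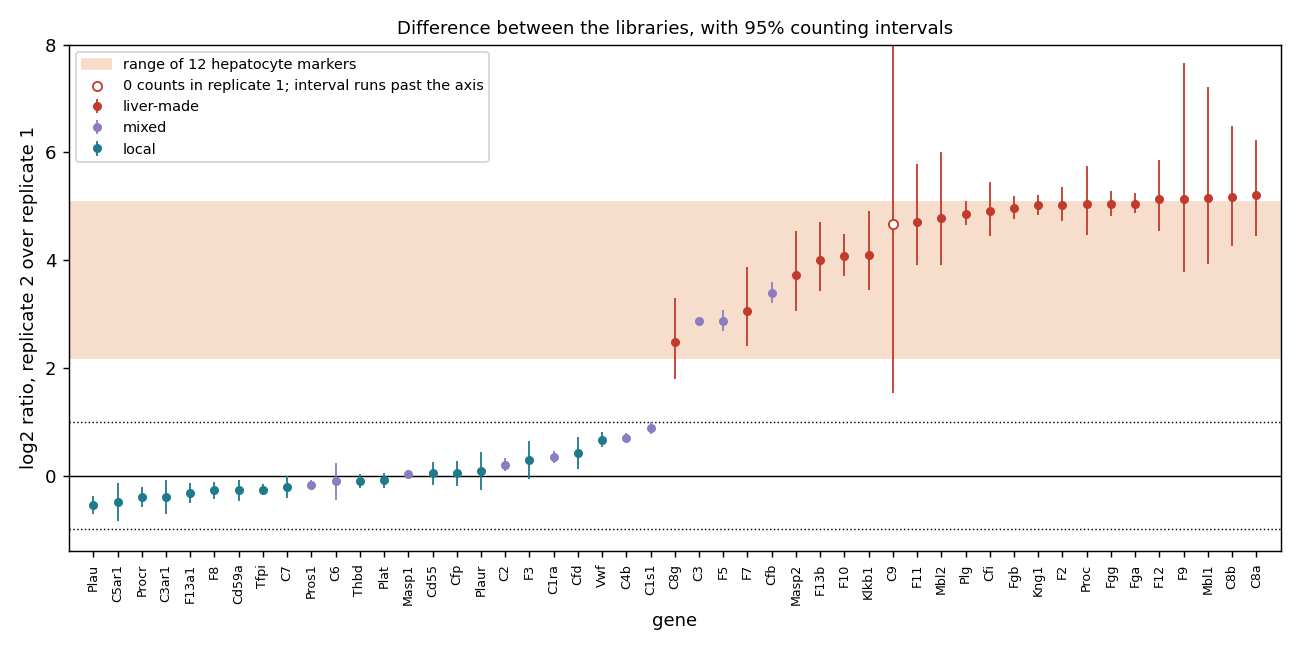
Log2 ratio of replicate 2 over replicate 1 for the 49 members, sorted, with 95% counting intervals, dotted lines at 2-fold either way and a band over the range of 12 hepatocyte markers (2.17 to 5.07). The local members lie between -0.55 and 0.67, the tested liver-made members between 2.48 and 5.20, and C3, F5 and Cfb (2.87 to 3.40) in the lower part of that range. C9 (open point) had 0 counts in replicate 1, so its position depends on the prior count and its interval runs past the axis.

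The fibrinogen chains are the substrate of thrombin and came out together. Fga, the alpha chain, at chr3:83026076-83033627 on mm10, was at 3.40 and 121.9 TPM, from 233 and 7429 counts. Fgg, the gamma chain, was at 2.85 and 100.2 TPM, from 151 and 4782 counts. Fgb, the beta chain, was at 1.53 and 51.2 TPM, from 188 and 5668 counts. All 3 were at 3.40 TPM or less in replicate 1 and among the 7 highest members in replicate 2. Their log2 ratios were 5.05 (95% interval 4.87 to 5.25), 5.04 (4.81 to 5.29) and 4.97 (4.76 to 5.19), which differ by less than their intervals. Fga and Fgg are 11026 bases apart and Fga and Fgb 6513 bases.

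Among the 6 vitamin K-dependent proteins, proteases and cofactors that need a modified glutamate to bind membranes, 4 were called higher in replicate 2. F2, which encodes prothrombin, was at 1.37 and 47.8 TPM, a log2 ratio of 5.03 (4.72 to 5.36). Proc, the gene of the anticoagulant protease protein C, had 22 and 709 counts and a ratio of 5.04. F10, whose product cuts prothrombin, had 59 and 963 counts and a ratio of 4.08 (3.71 to 4.49). F7, whose product is the partner of tissue factor, had 19 and 156 counts and a lower ratio of 3.06 (2.41 to 3.87). F7 and F10 are neighbours on chromosome 8 with 1498 bases between them. F9, the haemophilia B factor, had too few counts to be tested, 3 and 118, at 0.03 and 1.50 TPM, and its log2 ratio was 5.14 (3.77 to 7.65).

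Pros1 was the exception among the vitamin K-dependent genes. It encodes protein S, the cofactor of protein C, which endothelial and other cells make besides the liver. It was at 19.7 and 18.8 TPM, from 2072 and 1754 counts. The log2 ratio was -0.18 (-0.27 to -0.09), with an adjusted p of 6.51e-04 by the exact binomial test and far from 2-fold. In replicate 1 Pros1 stood above every liver-made member.

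The contact system starts clotting on charged surfaces, and all 4 of its members were called higher in replicate 2. Kng1, the gene of kininogen, the precursor of bradykinin, was the highest liver-made member at 4.43 and 136.9 TPM, with 249 and 7740 counts and a log2 ratio of 5.01 (4.83 to 5.21). F12, the zymogen that starts the contact reaction, was at 0.34 and 12.97 TPM, with 21 and 721 counts and a ratio of 5.13. Apart from Kng1, the genes of the group were under 1 TPM in replicate 1. F11 had 11 and 289 counts and a ratio of 4.71, and Klkb1, the gene of plasma prekallikrein, 18 and 304 counts and a ratio of 4.10 (3.45 to 4.91). F11 and Klkb1 are 4657 bases apart on chromosome 8. Klkb1 shares 25189 bases on its strand with the gene model Gm45753 (0 and 1.49 TPM), and the deposited spread of its count over possible read assignments was 8.56% in replicate 1, so its value is less certain.

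The cofactors and the fibrin crosslinking enzyme split within the group. F5, the cofactor of factor X, was at 1.03 and 8.03 TPM, from 249 and 1757 counts. Its ratio was 2.87 (2.69 to 3.08), called with an adjusted p of 2.67e-290 by the exact binomial test. F13b, the carrier subunit of factor XIII, had 23 and 360 counts and a ratio of 4.00 (3.42 to 4.70). F13a1, the catalytic subunit that macrophages and megakaryocytes make, was at 4.94 and 4.27 TPM, from 527 and 404 counts. Its ratio was -0.32, and its interval (-0.51 to -0.13) did not overlap that of F13b, the other gene of the enzyme complex. F8, the haemophilia A factor, which endothelium makes, was at 3.86 and 3.41 TPM, a ratio of -0.27.

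Vwf, the carrier of factor VIII and the anchor of platelets, was at 6.23 and 7.24 TPM, from 646 and 986 counts. Its ratio of 0.67 (0.52 to 0.81), or 1.59-fold, was the largest of the local class in either direction and not past 2-fold. On TPM the log2 ratio was 0.22, and a short transcript carried much of the gene's TPM. That transcript, Vwf-209, a processed transcript of 456 bases, took 41.6% and 22.2% of the TPM, and the coding Vwf-203 of 8834 bases took 26.2% and 41.1%. Vwf-203 held most of the counts, 471 and 776.

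At the vessel wall, none of the 4 members was called. Tfpi, the gene of the inhibitor of tissue factor, was the highest local member at 31.3 and 27.2 TPM, with 1826 and 1458 counts and a ratio of -0.27 (-0.37 to -0.17). Procr, the endothelial receptor of protein C, was at 13.2 and 10.7 TPM, with 598 and 435 counts and a ratio of -0.40 (-0.58 to -0.22). These inhibitory genes were well above the initiator. F3, which encodes tissue factor, was at 2.12 and 2.93 TPM, with 124 and 145 counts and a ratio of 0.28 (-0.07 to 0.64). Thbd, which encodes thrombomodulin, the endothelial switch that turns thrombin towards protein C, was at 8.18 and 8.12 TPM with a ratio of -0.10 (-0.23 to 0.03). So Procr and Thbd, on which protein C is activated, differed by less than 2-fold, although the interval of Procr lay below 0. Proc itself was 32.8-fold higher in replicate 2.

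Fibrinolysis showed the same contrast between a plasma zymogen and its activators. Plg, the gene of plasminogen, at chr17:12378608-12419385, was at 2.09 and 65.0 TPM, with 184 and 5158 counts and a ratio of 4.86 (4.66 to 5.09). Plat, the tissue-type activator, was at 10.9 and 10.8 TPM, with 868 and 785 counts and a ratio of -0.09 (-0.23 to 0.06). Plau, the urokinase-type activator, was at 9.65 and 7.02 TPM, with a ratio of -0.55 (-0.72 to -0.38), the lowest of all members. Plaur, the urokinase receptor, was at 4.09 and 4.63 TPM, with a ratio of 0.08. In replicate 1 both activators were above their substrate on the TPM scale, and in replicate 2 both were below it.

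**Figure D3:**
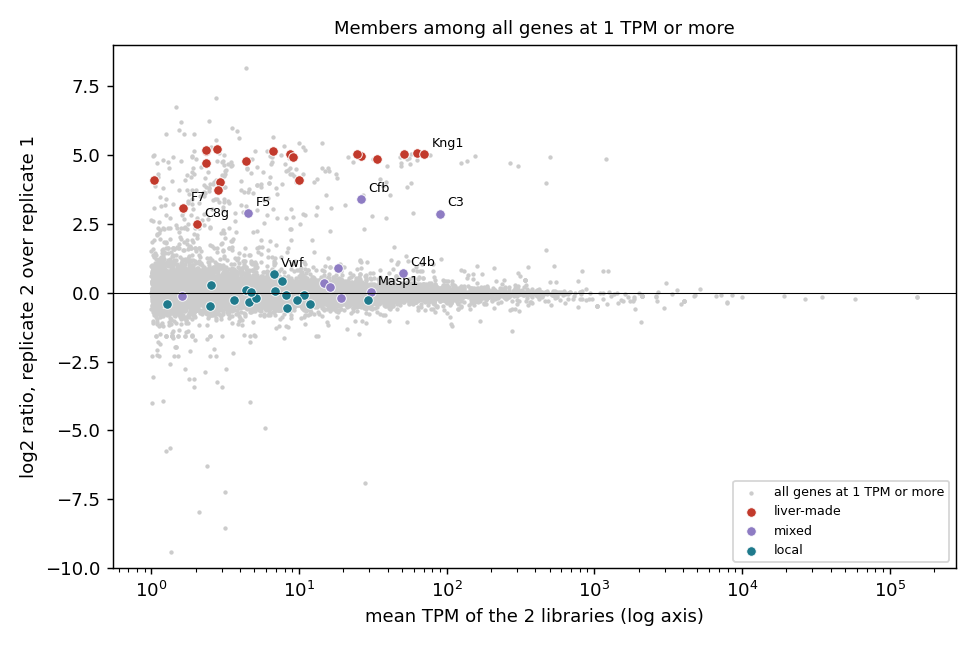
Log2 ratio of replicate 2 over replicate 1 against mean TPM (log axis) for all genes at 1 TPM or more (grey) and for the 47 members at that level, coloured by class. The liver-made members lie far above 0, where few of the 15123 genes are, while the local members lie within the main cloud, around a median of -0.21.

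The classical pathway members, all mixed by class, were detected in both libraries, and none was called. They carry out the steps that follow antibody recognition by C1q and end in C3 cleavage. C1s1, the protease that cuts C4 and C2, was at 13.2 and 23.6 TPM, with 985 and 1737 counts and a ratio of 0.88 (0.76 to 0.99), or 1.84-fold, just short of the call. Its partner C1ra, 6901 bases away, was at 12.6 and 17.0 TPM, with 1200 and 1466 counts and a ratio of 0.35 (0.24 to 0.46). C2, the protease subunit of the C3 convertase, was at 14.6 and 17.8 TPM, with 1013 and 1117 counts and a ratio of 0.20 (0.08 to 0.32). The ratios of these genes were positive, with adjusted p of 9.27e-53, 7.74e-09 and 0.00641 by the exact binomial test, but all under 2-fold.

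C4b, at chr17:34728380-34743882, was the highest member in replicate 1 at 47.1 TPM, and was at 53.6 TPM in replicate 2. Its counts were 1795 and 2806, a ratio of 0.70 (0.62 to 0.79), whereas the ratio on TPM was 0.19. Most of its TPM came from C4b-203, a transcript of 749 bases annotated as a retained intron, which took 89.2% and 74.9% of the gene. C4b-203 was at 42.0 and 40.2 TPM from 904 and 780 counts, and was the main transcript in the alignment-free tables too, at 101 and 86.0 TPM. The coding transcript C4b-201, of 5379 bases, was at 5.10 and 12.8 TPM from 891 and 2012 counts. On TPM the coding transcript was 2.50-fold higher in replicate 2 and the retained-intron transcript 0.957 times its level in replicate 1, differences without a test of their own. The intron that C4b-203 keeps is intron 39 of C4b-201, which has 41 exons, and its 284 bases are shown because the transcript that keeps them carried most of the gene's TPM.
C4b intron 39, chr17:34728898-34729181, minus strand: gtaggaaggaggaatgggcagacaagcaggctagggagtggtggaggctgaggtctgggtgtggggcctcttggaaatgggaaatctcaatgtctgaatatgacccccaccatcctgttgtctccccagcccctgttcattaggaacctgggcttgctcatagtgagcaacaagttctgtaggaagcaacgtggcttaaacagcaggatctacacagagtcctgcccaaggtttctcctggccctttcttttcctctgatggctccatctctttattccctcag
C4b has a near copy, C4a, with similar short transcripts annotated with retained introns. C4a-206 was at 34.6 and 24.7 TPM and C4a-209 at 15.7 and 11.3 TPM. C4b-203 shared 98.3% of its aligned bases with C4a-206, over 526 bases, and 97.8% with C4a-209, over 495 bases. Reads can be exchanged between such copies, so the split of TPM between C4b and C4a is uncertain. Both genes end near a copy of the adrenal steroid 21-hydroxylase gene, C4b 6127 bases from the pseudogene Cyp21a2-ps and C4a 4530 bases from Cyp21a1.

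**Figure D4:**
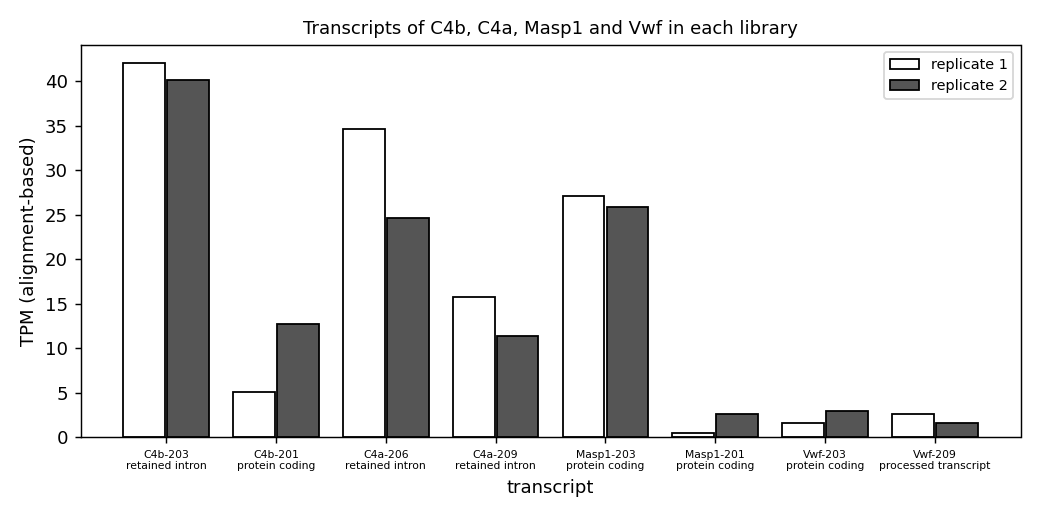
TPM of transcripts of C4b, C4a, Masp1 and Vwf in replicate 1 (white bars) and replicate 2 (grey bars), with the annotated type under each name. C4b-203 is at 42.0 and 40.2 TPM while C4b-201 goes from 5.10 to 12.8 TPM, and Masp1-203 is at 27.1 and 25.9 TPM while Masp1-201 goes from 0.46 to 2.65 TPM.

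The lectin pathway recognises sugars on microbes and was uneven. Masp1, the mixed member among its proteases, at chr16:23449417-23520815, was at 29.7 and 31.9 TPM, with 3523 and 3460 counts and a ratio of 0.03 (-0.04 to 0.10). It was the third highest member in replicate 1, and its interval held 0. Masp2, its partner, was at 0.36 and 5.26 TPM, with 18 and 233 counts and a ratio of 3.72 (3.06 to 4.53). The mannose-binding lectins had under 10 counts in replicate 1 and were not tested under the filter. Mbl2 was at 0.27 and 8.46 TPM, with 9 and 250 counts and a ratio of 4.78 (3.91 to 6.00). Mbl1 was at 0.15 and 4.57 TPM, with 4 and 153 counts and a ratio of 5.15 (3.93 to 7.21). Other recognition genes of the pathway, which are not members, were uneven as well. The ficolin gene Fcna was at 4.33 and 5.10 TPM, with 183 and 194 counts. The collectin gene Colec11 was at 1.71 and 3.34 TPM, with 73 and 123 counts. Colec10 was at 0.11 and 1.52 TPM, with 17 and 204 counts, and was called higher in replicate 2. Fcnb was at 0.11 and 0.84 TPM, with 1 and 19 counts, and was not tested under the filter. In replicate 1 Masp1, summed over its transcripts, was thus above all of these recognition genes on the TPM scale.

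Within Masp1 the transcripts differed as well. Masp1-203 took 91.2% and 81.3% of the TPM, at 27.1 and 25.9 TPM. It ends at position 23468363 of chromosome 16 and Masp1-201 at 23449417, and the protein form that each encodes was not examined. The value of the gene is thus mostly that of Masp1-203. The longer Masp1-201 went from 79 to 415 counts and from 0.46 to 2.65 TPM, and the alignment-free tables gave 2.43 and 6.22 TPM for it. These values come without a test, as only genes were tested. Masp2 overlaps 3118 bases of Tardbp on the opposite strand, which was at 124 and 99.2 TPM. Use of the strand in counting is not stated in the labels, so reads of such overlapping pairs may not have been told apart.

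Cfb and C3, with the cofactor gene F5, had the 3 largest ratios among the mixed members. C3, the protein on which all routes meet, at chr17:57203970-57228136, was at 20.6 and 160 TPM, from 3439 and 24084 counts. It was the highest member in replicate 2, and its ratio of 2.87 (2.82 to 2.92) was 7.30-fold. Cfb, the protease of the alternative C3 convertase, was at 4.32 and 48.4 TPM, from 251 and 2540 counts, a ratio of 3.40 (3.21 to 3.59). Both ratios were below that of Alb. Relative to Alb, C3 stood at 27.0% of its TPM in replicate 1 and at 6.91% in replicate 2, whereas Kng1 stood at 5.81% and 5.90% and Plg at 2.74% and 2.80%. Cfb and C2 are paralogs with 85 bases between them on chromosome 17, and their ratios were 3.40 and 0.20.

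The other alternative pathway genes are local by class. Cfd, which encodes the protease adipsin that adipocytes secrete, was at 6.33 and 9.06 TPM, with 171 and 219 counts and a ratio of 0.41 (0.12 to 0.71). Cfp, which encodes properdin, the stabiliser of the convertase made by leukocytes, was at 6.59 and 7.20 TPM, with 308 and 305 counts and a ratio of 0.04 (-0.19 to 0.28). Neither was called, although C3 and Cfb of the same pathway were.

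The terminal components build the pore of the membrane attack complex. C7, a local member, was the highest of them by mean TPM, at 5.31 and 4.89 TPM, with 453 and 376 counts and a ratio of -0.21 (-0.41 to -0.01). C6, a mixed member, was at 1.62 and 1.60 TPM, with 149 and 133 counts and a ratio of -0.10 (-0.45 to 0.24). The chains of C8 differed from these. C8a was at 0.14 and 5.44 TPM, with 12 and 441 counts and the highest ratio of all members, 5.20 (4.44 to 6.22). C8b, 11130 bases from C8a, was at 0.11 and 4.60 TPM, with 8 and 294 counts and a ratio of 5.17 (4.26 to 6.48), untested under the filter. C8g, on another chromosome, was at 0.56 and 3.51 TPM, with 19 and 104 counts and a ratio of 2.48 (1.80 to 3.30), the lowest of the liver-made members.

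The intervals of C8g and C8a did not overlap, although their proteins form one complex. It shares 970 bases on the opposite strand with Fbxw5, which was at 34.6 and 41.9 TPM. C9, the pore-forming component, had 0 counts in replicate 1 and 12 in replicate 2, and was at 0 and 0.36 TPM. Against the floor of 3 counts in that library it was at least 4.17-fold higher in replicate 2, and the 95% interval that also counts the error of the 12 counts began at 2.89-fold.

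Among the complement regulators, the plasma protease stood apart from the membrane proteins. Cfi, which encodes factor I, the protease that inactivates C3b and C4b, was at 0.55 and 17.8 TPM, with 36 and 1052 counts and a ratio of 4.91 (4.45 to 5.45). Cd59a, the membrane inhibitor of pore formation, was at 9.86 and 9.44 TPM, with 492 and 392 counts and a ratio of -0.27 (-0.46 to -0.07). Cd55, the membrane protein that dissolves convertases, was at 4.72 and 4.82 TPM, with 373 and 368 counts and a ratio of 0.04 (-0.17 to 0.25). The receptors of the complement fragments C5a and C3a, found on myeloid cells, were the lowest local group. C5ar1 was at 2.79 and 2.20 TPM, with 167 and 114 counts and a ratio of -0.49 (-0.85 to -0.14), and C3ar1 at 1.42 and 1.15 TPM, with 198 and 144 counts and a ratio of -0.40 (-0.72 to -0.08).

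With no limit on the fold, 6084 of the 18160 genes tested passed the adjusted threshold of the exact binomial test. Taking the local members as a class, 10 of 17 passed it without reaching 2-fold. Of these, 8 were lower and 2 (Vwf and Cfd) higher in replicate 2. Their order of levels was close in both libraries, with a Spearman correlation of 0.951 over the 17 genes, given as a description. The cortical and chromaffin markers had median ratios of about the same size, -0.24 each, and the members' median of -0.21 was not compared with them by a test. By the ratio of TPM the medians were -0.15 for the cortical markers, -0.17 for the chromaffin markers and -0.06 for the local members.

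Of the 28 members at a mean of 5 TPM or more, 25 had the same main transcript in both libraries of the alignment-based tables, and 22 had the same in the alignment-free tables as well. In 26 the main transcript of replicate 1 was protein coding, the exceptions being C4b and Vwf. Besides Vwf, the main transcript differed between the libraries for Proc, with Proc-201 at 88.9% and 0% of its TPM and Proc-206 at 0% and 92.1%. The alignment-free tables had Proc-207 first in both. The shares of Proc in replicate 1 rest on 22 counts, against 709 in replicate 2, and are uncertain. The main transcript also differed for Cfb, with Cfb-202 at 30.7% and 0% and Cfb-206 at 23.6% and 48.5%, while the alignment-free tables had Cfb-201 first. Transcripts of a gene overlap in sequence, and the part of read sharing among them in these exchanges was not tested. Between the kinds of table, F10 had F10-205 or F10-201, C1s1 had C1s1-204 or C1s1-203, and Cd59a had Cd59a-201 or Cd59a-202 as main transcript.

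Other genes of these pathways were followed in a list of 57. Of these, 47 were tested, 16 were higher in replicate 2 (background 3.38%) and none was higher in replicate 1. Among plasma inhibitors and carriers, 10 of 14 were higher. In the whole list, the 5 largest called differences were those of Apoh, Itih4, Serpinc1, Serpinf2 and Hc. Apoh, a phospholipid-binding plasma protein, was at 3.16 and 112 TPM (log2 ratio 5.05). Itih4 was at 1.79 and 61.4 TPM (4.86) and the antithrombin gene Serpinc1 at 3.62 and 104 TPM (4.83). The antiplasmin gene Serpinf2 was at 1.62 and 44.9 TPM (4.74). Hc, which encodes C5 and is one of the other complement genes, was at 0.48 and 12.6 TPM (4.73). Of the other complement genes, 5 of 26 were higher, and of the vitamin K cycle and protease receptor genes 1 of 17 was, Proz.

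The most abundant genes of the pathway list were membrane and cell-surface ones. Anxa5, which encodes a protein that binds phosphatidylserine, was at 144 and 120 TPM, a ratio of -0.34. Anxa2 and S100a10, whose products together bind plasminogen at the cell surface, were at 127 and 129 TPM and at 63.5 and 70.1 TPM, with ratios of -0.06 and 0.05. None of them was called.

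**Figure D5:**
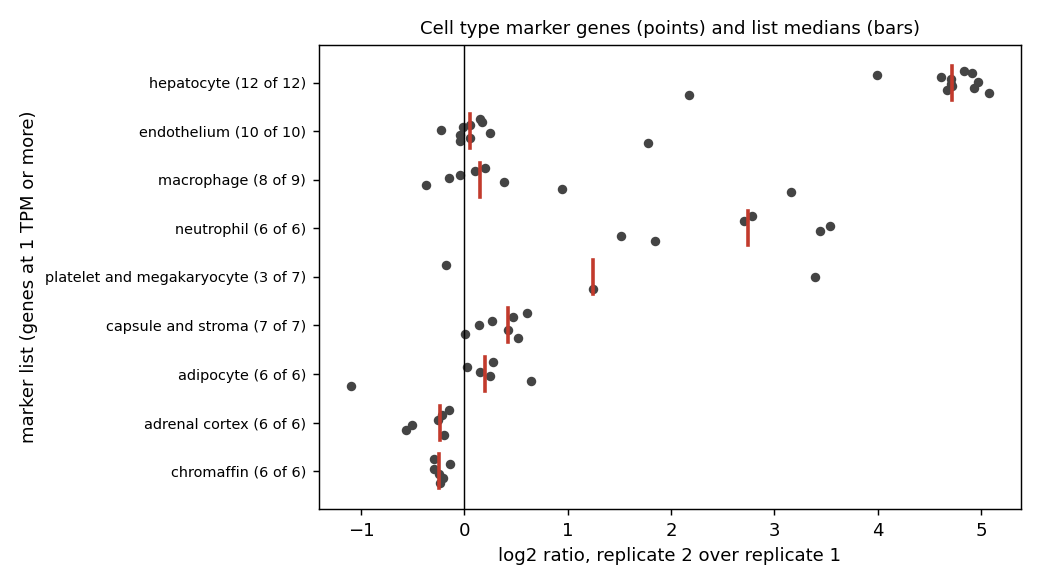
Log2 ratio of replicate 2 over replicate 1 for marker genes at 1 TPM or more (points) of 9 cell type lists, with the median of each list (bar) and the number of genes shown of those in the list. The hepatocyte and neutrophil lists lie to the right, around 4.71 and 2.74, while the medians of the endothelial, adrenal cortex and chromaffin lists are 0.05, -0.24 and -0.24.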

How the data were processed

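For each library the authors deposited a gene table and a transcript table derived from a transcriptome alignment, and a transcript table made without an alignment, all on mm10 and GENCODE M21, as the deposited descriptions state. Which programs made them is not stated there. The deposited values, per the file headers, are expected counts, which share reads among transcripts, TPM scaled to a fixed total per library, the percent of a gene's abundance held by each transcript, and the spread of a count over read assignments.

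Per the labels' protocols, the kit was directional. The members were matched by symbol through the annotation. Counts were rounded. Left out were 26249 rows naming no gene, with 3 counts in each library (9.21e-06% and 9.80e-06%), and spike-ins, 1.06% of counts. edgeR 4.0.16 (R 4.3.3) gave TMM sizes and, with filterByExpr, kept genes with enough counts in both libraries. This left out F9, Mbl1, Mbl2, C8b and C9. The smaller binomial tail was doubled (SciPy 1.17.1), and intervals are Clopper-Pearson at 95%. The biological coefficient of variation, estimated from the same 2 libraries taken as 1 group, was 0.233. P-values measure the spread of counting between these libraries, not between animals. The test was tried on simulated Poisson counts, which vary by counting only, so this cannot show how it behaves with differences between animals.

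Members, classes, lists and tests were chosen with earlier results of these data known, so the counts by class describe them only. Every member was named, with full values for the 2 highest of each role, mixed members and liver-made members not called. Of the pathway list the 3 highest and the 5 largest differences were named, and of each marker list the 3 highest. Fcna, Colec11, Colec10 and Fcnb were added after their values were seen. F8, F3, Thbd, Plau, Plaur, Fgb and others carry values beyond that rule. Transcripts were named where the main one differed between libraries or tables, and those of C4b and Masp1 after their values were seen. Alternatives were DESeq2 1.42.0 size factors, total or spike-in library sizes, alignment-free counts, no filter, edgeR's exact test, a 4-fold limit, a prior count of 5, ratios of TPM and 5 TPM for detection. Protein sequences were not used here, so the planned protein motif and identity were not computed. A marker gene and the promoter motifs tied to it are not reported here.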

Additional observations from a re-analysis of the deposited data

How the results depend on the processing

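Of 84 recomputed values, 80 kept their direction and side of the threshold, or moved by less than the spread, or for counts stayed within 1.5 times, and 4 moved. The median level of the members was 6.90 TPM with both libraries and 12.99 TPM in the alignment-free tables, and 2.85 to 8.12 TPM when 1 library was left out, replicate 2 and replicate 1 in that order. The median log2 ratio of the mixed members was 0.53 and became 0.37 by the ratio of TPM. Detected members numbered 47 at 1 TPM and 28 at 5 TPM, and 34 to 48 when 1 library was left out. The cause of these shifts was not tested. The 20 members higher in replicate 2 were 20 under each other scaling, the alignment-free counts, edgeR's exact test and a 4-fold limit. They were 25 without the filter, where all 22 liver-made members were called. Of all genes compared, 1.43% were higher by edgeR's exact test, 1.41% with the 4-fold limit and 3.40% without the filter. The share was 3.35% to 3.55% under the other scalings and the alignment-free counts. Without the filter the adjusted p of the exact binomial test was 0.00285 for C9 and 1.18e-30 or lower for F9, Mbl1, Mbl2 and C8b. No member was higher in replicate 1 under any of these. The pathway list gave 16, with 18 from alignment-free counts and 22 without the filter. The ratio of TPM moved the median of all genes from -0.02 to 0.09, a shift of 0.10, and the median of the local members from -0.21 to -0.06. The other scalings moved the median of all genes by at most 0.03. No paired analysis was possible because the series has 1 group, and no test could be made without a replicate because 1 library is left. Depth limits the members under 10 counts in replicate 1.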

Other observations

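Neutrophil genes, which lie outside the 2 protein systems, also differed between the libraries. All 6 neutrophil markers were called higher in replicate 2. S100a9 was at 9.59 and 67.7 TPM, S100a8 at 7.47 and 55.0 TPM, and the granule protein gene Ngp at 2.26 and 28.1 TPM, and the list's median log2 ratio was 2.74. Platelet genes were mixed, with Ppbp at 0.43 and 4.97 TPM and Itga2b at 1.76 and 2.99 TPM called higher, and Pf4 at 17.2 and 16.0 TPM not. The C1q chains, which macrophages make, were alike in both libraries: C1qa was at 18.3 and 19.6 TPM, C1qb at 19.2 and 21.2 TPM and C1qc at 16.4 and 17.4 TPM, with log2 ratios of 0.01, 0.05 and -0.01. Vsig4, the complement receptor for which liver macrophages are known, had 2 and 56 counts and was not tested under the filter.

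The remaining marker lists give the setting of the local members. Endothelial Egfl7 was at 75.3 and 94.1 TPM, Plvap at 63.2 and 65.4 TPM and Cdh5 at 35.3 and 41.5 TPM. Macrophage Lyz2 was at 19.1 and 26.5 TPM, Csf1r at 11.8 and 15.0 TPM and Mrc1 at 12.4 and 11.8 TPM. The collagen genes Col3a1, Col1a1 and Col1a2 were at 295 and 393, 238 and 388, and 199 and 290 TPM. In the adipocyte list, the source tissue of Cfd, Fabp4 was at 349 and 407 TPM, Plin1 at 136 and 146 TPM and Ucp1 at 105 and 174 TPM, and Lep was called higher in replicate 1. The cortical genes Cyp11a1 and Star were at 934 and 830 and at 864 and 790 TPM, and the chromaffin genes Chgb and Pnmt at 564 and 519 and at 369 and 320 TPM.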
